A study of Mus musculus with 6 samples.

Results

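The 10 genes described here encode proteins that bind actin filaments or set the activity of myosin in smooth muscle: the transgelins Tagln and Tagln2, the calponins Cnn1 and Cnn2, the tropomyosins Tpm1, Tpm2 and Tpm4, and the myosin regulators Myl9, Mylk and Cald1. They were chosen by name, with earlier results of these data known. All probe sets annotated to them were taken: 24 of the 45101 probe sets of the array, and 10 of 18193 genes. The data came from 6 Affymetrix arrays of the mouse fibroblast line NIH3T3, derived from embryos. NIH3T3 cells with mutant LPAR1 gave 3 arrays, 1 each at 0, 60 and 120 minutes, and NIH3T3 cells with wild-type LPAR1 gave 3 arrays at the same times. LPAR1 is a receptor on the cell surface that binds the serum lipid lysophosphatidic acid (LPA). The labels do not say which mutation the receptor carried, how the cells were treated from 0 minutes on, or from how many clones or cultures the RNA came, so the spread between arrays measures no known spread between cultures and may be technical. In such bulk RNA, fewer cells of a type and less RNA per cell cannot be told apart.

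Many genes of the contractile apparatus are switched on by serum response factor, SRF, a transcription factor that binds a short sequence called the CArG box. Its cofactors, the myocardin-related transcription factors, are held back by unpolymerised actin and are released when actin filaments are built, as LPA can bring about. In smooth muscle these genes make the contractile machinery, and in fibroblasts several of them serve stress fibres, bundles of actin and myosin that pull on the substrate.

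The label of a smooth muscle set was checked against 12 other markers of that tissue, whose summed intensity ran from 1201 to 7904 in mutant and from 1229 to 8257 in wild-type cells. Lmod1, Synpo2, Pln, Kcnmb1 and Pdlim3 were below the filter level of 39.2, the intensity at the 40th percentile of all genes, on all 6 arrays, as was Myocd, the smooth and cardiac muscle cofactor of SRF. Acta2, Smtn, Hspb7 and Itga8 were above it on all 6. Most of the sum was Acta2, smooth muscle actin, with intensities of 723, 7002 and 7274 in mutant cells and 742, 7237 and 7607 in wild-type cells at 0, 60 and 120 minutes. The remaining 3, Actg2, Des and Myh11, crossed the level: Actg2 was below it at 0 minutes and above it later, and Myh11, smooth muscle myosin, lay between 31.8 and 44.6 in mutant and between 40.5 and 48.7 in wild-type cells. All 10 fibroblast markers listed were above it on every array, with summed intensities from 59133 to 60277 in mutant and from 59874 to 61500 in wild-type cells. Smooth muscle markers were thus mixed in these fibroblasts, and the 10 genes are called here by their roles on actin and myosin. Of the skeletal and cardiac muscle markers 8 of 10 were below the level on all arrays (summed intensity from 291 to 302 in mutant and from 309 to 379 in wild-type cells), as were 4 of 6 epithelial markers (328 to 438 in mutant, 362 to 431 in wild-type cells) and 4 of 6 endothelial and leukocyte markers (294 to 300.2 in mutant, 235 to 255 in wild-type cells).

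RefSeq promoters (GRCm38.p6, 250 bases before to 50 after a gene's start) were found for 9 of the 10 genes, 10 promoters in all, and Tagln had none in the table. A set of 3 motifs was searched on both strands: the CArG box by its consensus, TGAGTCA (the AP-1 site), and GGAATG (the MCAT element that TEAD factors bind). A CArG box was present in 2 of the 10 promoters, those of Cnn2 and Myl9, against 1.63% of all 32851 promoters in the table. The AP-1 letters were in 2 of the 10 (Mylk and 1 of the 2 Cald1 promoters), against 5.20% of all. The MCAT letters were in 4 of the 10 (Tagln2, Tpm1, Mylk and the other Cald1 promoter), against 14.7% of all. No matches of different motifs overlapped in the member promoters.

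The promoters of Cnn2 and Myl9 are shown for their CArG boxes, and those of Tpm1 and Mylk as a gene whose signal changed strongly with time and one whose signal passed no test over time. Each is written 5′ to 3′ on the strand of the gene, with matches to any of the motifs in capitals.
Cnn2, chr10:79988350-79988649, strand +: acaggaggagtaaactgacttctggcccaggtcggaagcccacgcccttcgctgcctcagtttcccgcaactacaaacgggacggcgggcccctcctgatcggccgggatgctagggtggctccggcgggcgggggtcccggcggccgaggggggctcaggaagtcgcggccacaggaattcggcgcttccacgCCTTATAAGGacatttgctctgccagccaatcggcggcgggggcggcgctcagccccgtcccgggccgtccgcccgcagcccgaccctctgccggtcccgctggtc
Myl9, chr2:156775214-156775513, strand +: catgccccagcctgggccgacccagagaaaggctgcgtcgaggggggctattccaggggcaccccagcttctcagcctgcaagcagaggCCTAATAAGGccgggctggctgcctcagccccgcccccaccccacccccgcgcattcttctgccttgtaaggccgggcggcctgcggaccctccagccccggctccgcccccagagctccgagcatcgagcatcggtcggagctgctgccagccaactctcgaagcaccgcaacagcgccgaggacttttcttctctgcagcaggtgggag
Tpm1, chr9:67049164-67049463, strand -: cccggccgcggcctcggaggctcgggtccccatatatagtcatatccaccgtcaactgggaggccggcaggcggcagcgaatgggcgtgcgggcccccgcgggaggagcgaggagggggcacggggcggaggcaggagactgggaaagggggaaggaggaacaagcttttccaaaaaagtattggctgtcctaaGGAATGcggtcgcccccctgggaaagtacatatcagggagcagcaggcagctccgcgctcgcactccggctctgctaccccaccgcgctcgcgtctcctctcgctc
Mylk, chr16:34784700-34784999, strand +: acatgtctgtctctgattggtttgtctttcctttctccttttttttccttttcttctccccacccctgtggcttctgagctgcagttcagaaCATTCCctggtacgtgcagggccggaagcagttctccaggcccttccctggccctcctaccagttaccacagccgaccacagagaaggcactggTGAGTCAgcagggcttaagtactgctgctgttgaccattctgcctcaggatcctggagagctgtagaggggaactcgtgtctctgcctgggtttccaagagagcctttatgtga

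The CArG box of Cnn2 began 56 bases and that of Myl9 161 bases before the start. In Tpm1 the capitals mark an MCAT match that began 56 bases before it. In Mylk they mark an MCAT match on the opposite strand, shown as its complement, 158 bases and an AP-1 match 64 bases before it. A match describes letters in this window and shows no binding.

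Across time, 6 of the 8 members tested were higher at 60 than at 0 minutes and none was lower, and the same counts held for 120 against 0 minutes. The other members, Cnn1 and Myl9, fell below the filter on low levels, which asked for a mean of log2(intensity + 16) at or above the 40th percentile of all genes. Among all 10916 genes tested with limma, 7.34% were called higher and 10.7% lower at 60 than at 0 minutes, and 16.2% were higher and 30.8% lower at 120 than at 0 minutes (Benjamini-Hochberg adjusted p under 0.05). For 60 against 0 minutes these shares were 801 higher and 1168 lower genes, which became 1015 higher and 622 lower when each array was centred on its median, while the members' counts stayed at 6 and 0. None of the members was lower at an unadjusted p of 0.05 in either comparison. The median log2 difference of the 8 was 0.56 at 60 and 0.73 at 120 minutes, against -0.07 and -0.09 for all genes. Both comparisons use the same arrays at 0 minutes, and each time had 2 arrays, 1 per genotype.

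**Figure D1:**
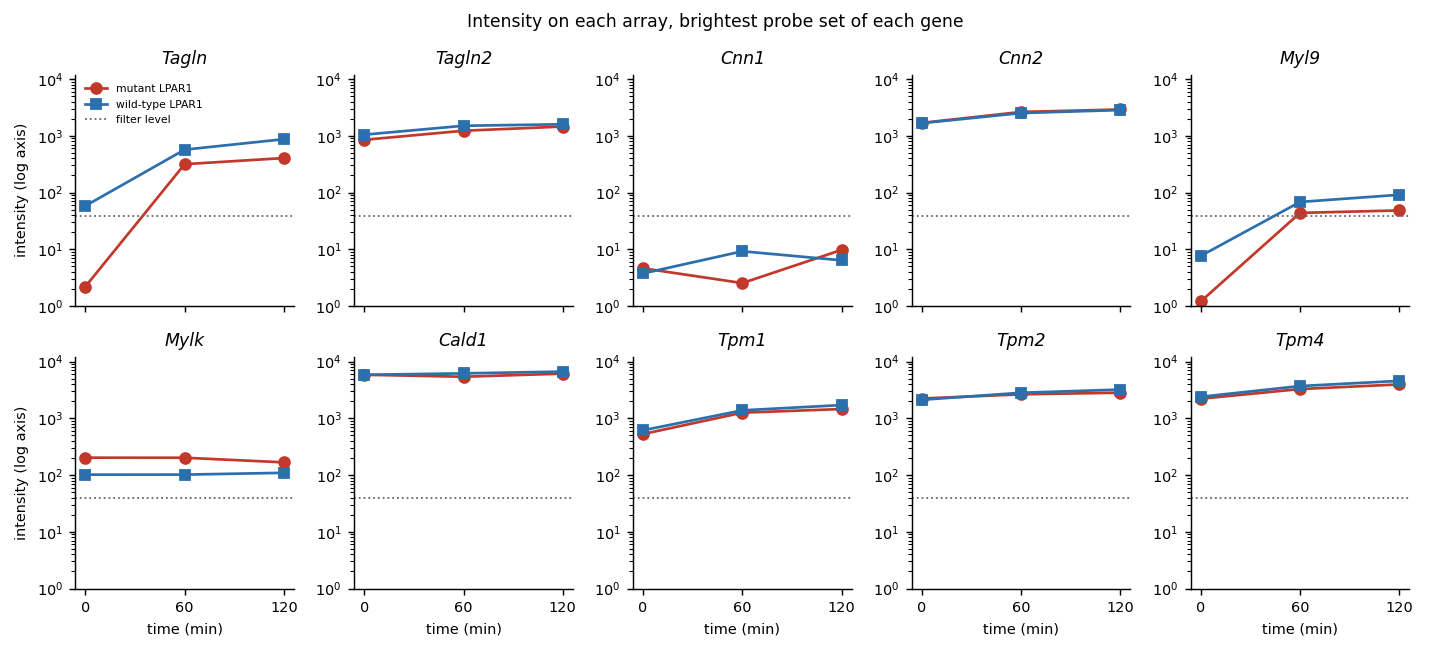
Intensity (log axis) against time in minutes for the brightest probe set of each of the 10 genes, with red circles for mutant and blue squares for wild-type cells, 1 array per point. The dotted line is the filter level of 39.2. Tagln and Myl9 rose from values far below it in mutant cells, and Cnn1 stayed below it on all 6 arrays.

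Tagln, which encodes transgelin, an actin cross-linking protein known as an early marker of smooth muscle, had the largest change. Its intensity in mutant cells was 2.21 at 0, 316 at 60 and 405 at 120 minutes. In wild-type cells it was 58.2 at 0, 570 at 60 and 871 at 120 minutes. All 4 later arrays lay above both arrays at 0 minutes, and the mutant array at 0 minutes was the only one of the 6 below the filter level, so the gene passed the filter through its later arrays. The log2 difference was 3.58 ± 0.22 (SE; adjusted p = 2.20e-06) between 60 and 0 minutes and 4.05 ± 0.22 (adjusted p = 4.83e-07) between 120 and 0 minutes. Its size depends on the offset of 16, because 1 array is so dim: offsets of 1 and 64 gave 4.95 and 2.45 at 60 minutes and 5.43 and 2.88 at 120 minutes. Set against the filter level, the signal at 60 minutes was at least 8.07-fold higher than at 0 minutes in mutant cells, and it was 9.78-fold higher than the measured value in wild-type cells. At 120 minutes it was at least 10.3-fold higher in mutant and 14.9-fold higher in wild-type cells.

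Tagln2, a relative of transgelin made in many cell types, changed far less. Its intensity was 849, 1226 and 1454 in mutant cells and 1047, 1501 and 1595 in wild-type cells at 0, 60 and 120 minutes. Each later array exceeded both arrays at 0 minutes. The log2 difference was 0.52 ± 0.062 (SE; adjusted p = 0.000292) at 60 and 0.68 ± 0.062 (adjusted p = 1.60e-05) at 120 minutes. The earlier call did not pass without genotype in the fit (adjusted p = 0.0961). A second probe set of the gene gave 0.56 and 0.70, and its remaining set was below the filter level on all 6 arrays.

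Of the calponins, which bind actin and can slow myosin, Cnn1 is the smooth muscle form and Cnn2 is found in many cell types. Cnn1 had a single probe set, with intensities of 4.62, 2.54 and 9.75 in mutant cells and 3.76, 9.22 and 6.40 in wild-type cells at 0, 60 and 120 minutes. These values lay far below the filter level and have no readable order. Cnn2 had intensities of 1687, 2630 and 2905 in mutant cells and 1670, 2516 and 2840 in wild-type cells at the same times. The genotypes were close at every time, and both later times were above 0 minutes, with log2 differences of 0.61 ± 0.050 (SE; adjusted p = 2.04e-05) and 0.77 ± 0.050 (adjusted p = 1.88e-06).

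The tropomyosins, coiled-coil proteins that lie along actin filaments and govern access of myosin and other binding proteins, all rose. Tpm1 had intensities of 528, 1254 and 1454 in mutant cells and 615, 1381 and 1707 in wild-type cells at 0, 60 and 120 minutes. It was more than doubled on all 4 later arrays, with log2 differences of 1.19 ± 0.059 (SE; adjusted p = 4.12e-07) at 60 and 1.44 ± 0.059 (adjusted p = 7.45e-08) at 120 minutes. Tpm4 had intensities of 2211, 3274 and 3953 in mutant cells and 2393, 3696 and 4563 in wild-type cells. Its log2 differences were 0.59 ± 0.049 (adjusted p = 2.22e-05) and 0.88 ± 0.049 (adjusted p = 6.36e-07). At the brightest sets Tpm2 moved least of them: its intensities were 2231, 2644 and 2823 in mutant cells and 2118, 2818 and 3205 in wild-type cells. Its log2 differences were 0.33 ± 0.064 (adjusted p = 0.00614) and 0.47 ± 0.064 (adjusted p = 0.000244). The earlier one did not pass without the wild-type array at 0 minutes (0.22; adjusted p = 0.0644) or without genotype in the fit (adjusted p = 0.0870). The Tpm2 sets 1425028_a_at, 1449577_x_at and 1419739_at rose by more, by 0.41, 0.56 and 0.76 at 60 and by 0.65, 0.76 and 0.52 at 120 minutes. All of these passed (adjusted p from 0.000165 to 0.00595 in the fit of probe sets).

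Myl9, Mylk and Cald1 regulate myosin in different ways: Myl9 is a regulatory light chain, Mylk the kinase that phosphorylates it, and Cald1 (caldesmon) an actin-binding inhibitor of myosin. Myl9 had intensities of 1.21, 43.8 and 48.4 in mutant cells and 7.64, 68.2 and 91.2 in wild-type cells at 0, 60 and 120 minutes. Both arrays at 0 minutes were below the filter level and all 4 later ones were above it. Set against that level, the signal in mutant cells was at least 1.12-fold higher at 60 and 1.23-fold higher at 120 than at 0 minutes. In wild-type cells it was at least 1.74-fold and 2.33-fold higher. When all 18193 genes were fitted without a filter, Myl9 differed by log2 1.81 ± 0.13 (SE; adjusted p = 1.31e-05) at 60 and 2.04 ± 0.13 (adjusted p = 2.86e-06) at 120 minutes, where 4.06% and 9.52% of genes were called higher. The sizes of these differences depend on the offset, since both arrays at 0 minutes were dim.

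The brightest sets of Mylk and Cald1 passed no test over time. Mylk had intensities of 202, 202 and 167 in mutant cells and 102, 102 and 109 in wild-type cells, and the 95% interval of its log2 difference at 60 minutes ran from -0.24 to 0.24. At 120 minutes the interval ran from -0.32 to 0.16. Cald1 had intensities of 5845, 5398 and 6113 in mutant cells and 5836, 6184 and 6650 in wild-type cells. Its intervals ran from -0.14 to 0.10 at 60 and from 0.01 to 0.25 at 120 minutes (adjusted p = 0.868 and 0.0786). The later Cald1 difference passed when arrays were centred on their median (adjusted p = 0.0187), under quantile normalization (0.0449) and without the mutant array at 0 minutes (0.0131). Of the other Cald1 sets, fitted as single probe sets, 1424768_at and 1424770_at were higher at 120 than at 0 minutes (log2 0.41 and 0.28; adjusted p = 0.0443 and 0.0410), and 1433147_at, described further on, was lower.

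**Figure D2:**
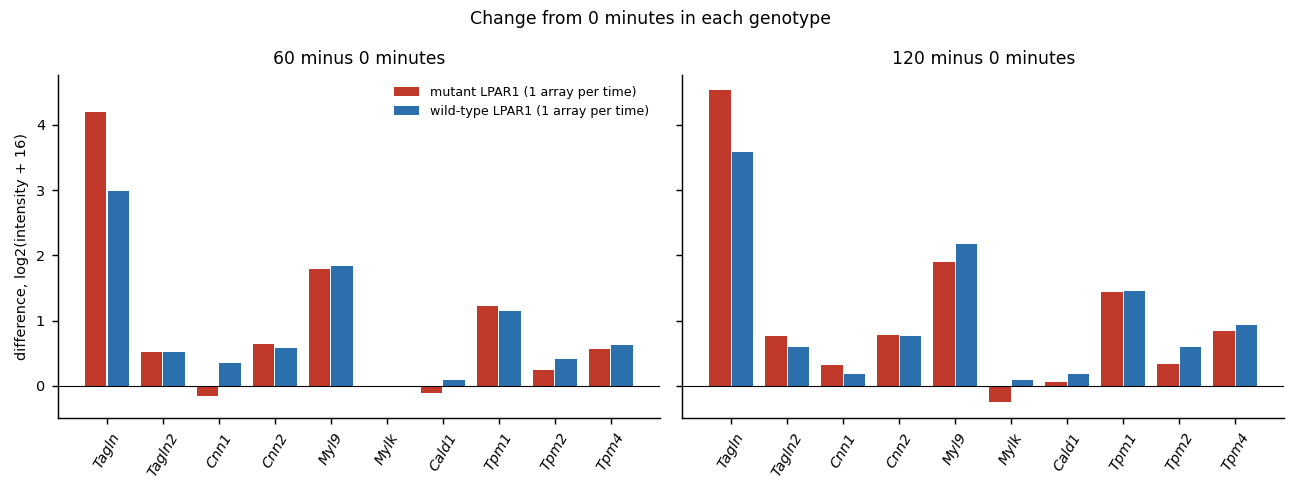
Difference from 0 minutes on the log2(intensity + 16) scale for each gene, at 60 minutes on the left and 120 minutes on the right, with red bars for mutant and blue bars for wild-type cells, 1 array per genotype and time. Tagln, Myl9 and Tpm1 have the tallest bars in both genotypes, and the Mylk bars are near 0 or of opposite sign; the Cnn1 bars compare values below the filter level.

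By 60 minutes most of the change of the 6 members had been made. Of the 8 members 3 were higher at 120 than at 60 minutes, against 10.2% of all genes, and none was lower, against 15.0%. None was lower at an unadjusted p of 0.05. They were Tpm4 (log2 0.29 ± 0.049, SE; adjusted p = 0.00202), Tpm1 (0.26 ± 0.059; adjusted p = 0.00938) and Cnn2 (0.16 ± 0.050; adjusted p = 0.0445). Tagln differed by 0.47 ± 0.22 (adjusted p = 0.156), higher in both genotypes but unevenly, by 0.34 in mutant and 0.60 in wild-type cells. None of the 3 passed without genotype in the fit (adjusted p from 0.140 to 0.267). The count moved readily: it was 5 without either array at 0 minutes, 1 without the wild-type array at 60 minutes and 2 without the wild-type array at 120 minutes.

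As a measure of RNA quality, the brightness of a control set at the 5′ end was set against that of one at the 3′ end. For Actb this ratio was 0.505, 0.683 and 0.661 in mutant cells and 0.579, 0.650 and 0.699 in wild-type cells at 0, 60 and 120 minutes. That of Gapdh stayed from 0.954 to 1.03. Actb itself was called higher at 60 and 120 than at 0 minutes (log2 0.24 and 0.30; adjusted p = 0.00325 and 0.000255). Whether RNA quality itself changed was not tested. Among the fibroblast markers Pdgfra, a growth factor receptor, had intensities of 1640, 1323 and 971 in mutant cells and 1595, 1294 and 1091 in wild-type cells, and it was lower at 60 and 120 than at 0 minutes (log2 -0.30 and -0.64; adjusted p = 0.0110 and 3.35e-05). Col5a1 was lower at 60 minutes (-0.21; adjusted p = 0.0184), Pdgfrb at 120 minutes (-0.32; adjusted p = 0.00172) and the epithelial cadherin Cdh1 at 120 minutes (-0.53; adjusted p = 0.00145), while the other markers of these lists passed neither test. The part of RNA quality and of these markers in the time differences was not tested.

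Several of these genes were read by more than 1 probe set, and the sets of a gene did not always follow the same course. Of the 24 sets, 19 were at or above the filter level. Fitted on their own, 13 of the 19 were higher and none lower at 60 than at 0 minutes, and 14 were higher and 1 lower at 120 minutes. Among all 18911 probe sets at that level, 7.32% and 8.05% were called higher and lower at 60 minutes, and 16.4% and 24.9% at 120 minutes. Between 60 and 120 minutes 2 member sets were higher and 2 lower, against 9.19% and 11.4% of all sets. In both genotypes 11 of the 19 were highest at 120 minutes and 3 were highest at 60 minutes. The remaining 5 had their highest value at other or unlike times.

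The 3 sets that peaked at 60 minutes belonged to Cald1, Tpm1 and Tpm2, and each was dimmer than the gene's brightest set. The Cald1 set 1433147_at had intensities of 95.9, 209 and 39.2 in mutant cells and 139, 266 and 56.2 in wild-type cells at 0, 60 and 120 minutes. It rose by log2 0.94 ± 0.097 (SE; adjusted p = 0.000194 in the fit of probe sets) at 60 minutes, and then differed by -2.00 ± 0.097 (adjusted p = 3.86e-06) between 120 and 60 minutes, while the brightest Cald1 set passed neither test. At 120 minutes it was below its value at 0 minutes by log2 -1.06 (adjusted p = 3.88e-05), the member set called lower. The Tpm1 set 1456623_at had intensities of 54.0, 143 and 89.1 in mutant cells and 72.5, 188 and 136 in wild-type cells. It rose by 1.19 ± 0.10 (adjusted p = 5.91e-05) at 60 minutes, as did the other Tpm1 sets, but differed by -0.51 ± 0.10 (adjusted p = 0.00645) between 120 and 60 minutes, where the brightest set rose by 0.26. The Tpm2 set 1419739_at had intensities of 75.5, 137 and 112 in mutant cells and 73.1, 138 and 115 in wild-type cells. Its difference between 120 and 60 minutes was -0.25 ± 0.095 (adjusted p = 0.106). Which transcripts or exons these sets read is not annotated in the sources used here.

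**Figure D3:**
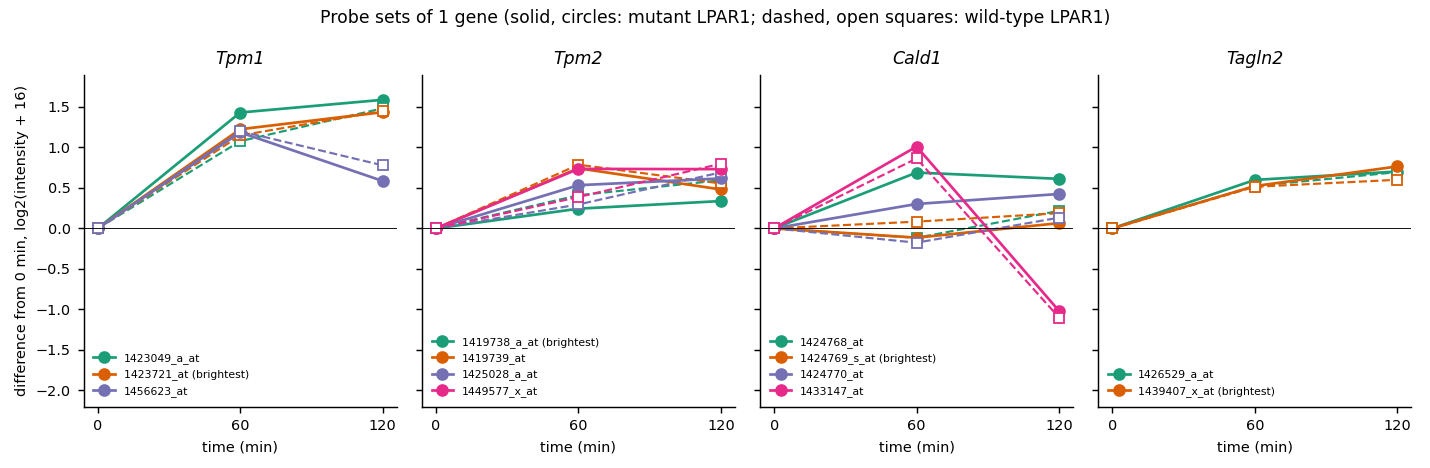
Difference from 0 minutes on the log2(intensity + 16) scale against time for the probe sets of Tpm1, Tpm2, Cald1 and Tagln2 at or above the filter level, with solid lines and circles for mutant and dashed lines and open squares for wild-type cells, 1 array per point. The Cald1 set 1433147_at climbs to 60 minutes and lies about 1 log2 unit below its start at 120 minutes in both genotypes, and the Tpm1 set 1456623_at drops after 60 minutes while the other Tpm1 sets do not.

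Between genotypes, most of the members called were lower in mutant cells. Of the 8 tested, Tagln, Tagln2, Tpm1 and Tpm4 were lower and Mylk was higher in mutant cells, against 8.92% of all genes called lower and 10.4% called higher. The share of members called higher was thus near that of all genes. Cnn2, Cald1 and Tpm2 did not pass. The median log2 difference, mutant minus wild-type, was -0.13 for the 8 members and 0.01 for all genes. The check gene Lpar1, which encodes the receptor, had a mean intensity of 1483 ± 39.4 in mutant and 1305 ± 26.4 in wild-type cells (SD, n = 3 arrays each, at different times). It was called higher in mutant cells (log2 0.18 ± 0.045, SE; adjusted p = 0.0207). Some markers of cell types differed as well. Of 10 fibroblast markers Col1a1 (log2 -0.49 ± 0.050, SE; adjusted p = 0.000186) and Pdgfrb (-0.23 ± 0.049; adjusted p = 0.00986) were lower and Col3a1 was higher (0.18 ± 0.035; adjusted p = 0.00660). Of 2 tested epithelial markers Cdh1 was lower (-0.49 ± 0.079; adjusted p = 0.00283). Of 2 tested endothelial and leukocyte markers Cdh5, the endothelial cadherin, was higher (adjusted p = 0.000243). Its intensities were 61.4 to 64.6 in mutant cells and, below the filter level, 22.4 to 27.4 in wild-type cells. It thus passed the filter only through its mutant arrays. The part of these markers in the differences of the members was not tested.

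Tagln had the largest difference, log2 -1.31 ± 0.18 (SE; adjusted p = 0.00104). At each time the mutant array was below the wild-type array, with differences of log2 -2.03 at 0, -0.82 at 60 and -1.07 at 120 minutes. The value at 0 minutes rests on the dim mutant array. Without either array at 0 minutes the estimate was -0.95. Both fits rest on the same pairs at 60 and 120 minutes, so they are not separate checks. Offsets of 1 and 64 gave -2.05 and -0.87. In intensities the mutant array was 0.555 of the wild-type array at 60 and 0.465 of it at 120 minutes.

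The lower calls of Tagln2, Tpm1 and Tpm4 were small at the brightest sets. Tagln2 differed by log2 -0.24 ± 0.051 (SE; adjusted p = 0.0106), with -0.30, -0.29 and -0.13 at 0, 60 and 120 minutes. Its second set above the filter did not pass (-0.15; adjusted p = 0.0795 in the fit of probe sets), nor did the mean of its 3 sets (-0.15; adjusted p = 0.103). Tpm1 differed by -0.19 ± 0.048 (adjusted p = 0.0205), with -0.21, -0.14 and -0.23, and Tpm4 by -0.16 ± 0.040 (adjusted p = 0.0200), with -0.11, -0.17 and -0.21. All 9 of these values were below 0, but none reached a 1.25-fold difference. Away from the brightest set, the Tpm1 set 1456623_at was lower by more (-0.41 ± 0.083; adjusted p = 0.0133 in the fit of probe sets). The Tpm1 set 1423049_a_at gave -0.24 and did not pass (adjusted p = 0.0549). Without the trend in the shrinkage none of the 3 genes passed (adjusted p from 0.0510 to 0.0995). Tpm1 did not pass without an array at 0 or 120 minutes, nor Tpm4 without one at 60 or 120 minutes (0.0579 to 0.0823). Without time as a block none of the 4 lower calls, Tagln included, passed (adjusted p from 0.887 to 0.992).

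Mylk was the member called higher, with a mutant intensity 1.99-fold, 1.98-fold and 1.53-fold that of wild-type cells at 0, 60 and 120 minutes. Its intensities were 202, 202 and 167 in mutant cells against 102, 102 and 109 in wild-type cells, so that every mutant array exceeded every wild-type array. The log2 difference was 0.78 ± 0.087 (SE; adjusted p = 0.000316), ranked 39 from the highest of all genes, and it passed without time as a block as well (adjusted p = 0.0374). By time it was 0.89, 0.89 and 0.55. A second Mylk set, with intensities of 92.9, 86.0 and 90.2 in mutant and 48.7, 48.9 and 57.4 in wild-type cells, gave 0.65 ± 0.088 (adjusted p = 0.00228 in the fit of probe sets). A further set, with values from 34.5 to 44.8 in mutant and from 35.3 to 41.6 in wild-type cells, gave 0.05 (adjusted p = 0.743), and it lay near the filter level.

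For the members that did not pass, the 95% intervals bound the difference. That of Cnn2 ran from -0.05 to 0.13, that of Tpm2 from -0.18 to 0.05 and that of Cald1 from -0.20 to -0.01 on the log2 scale (adjusted p = 0.577, 0.420 and 0.124). For Cald1, leaving out either array at 0 minutes gave -0.16, in both cases from the same pairs at 60 and 120 minutes. The Cald1 call depended on how its sets were used. The mean of its 5 sets gave -0.26 (adjusted p = 0.0165), and set 1424768_at gave -0.42 ± 0.12 (adjusted p = 0.0467 in the fit of probe sets). That set had intensities of 1358, 2201 and 2085 in mutant cells and 2406, 2218 and 2799 in wild-type cells at 0, 60 and 120 minutes, and its difference was largest at 0 minutes, at log2 -0.82. Of the 19 member sets, 7 were called lower and 2 higher in mutant cells, against 7.13% and 6.44% of all sets. Myl9, which the filter left out, had 43.8 and 48.4 in mutant cells and 68.2 and 91.2 in wild-type cells at 60 and 120 minutes. It was below the filter level in both genotypes at 0 minutes. In the fit without a filter it was lower in mutant cells by log2 -0.56 ± 0.10 (SE; adjusted p = 0.00876). There 866 of 18193 genes were called lower, and Cnn1 did not pass (-0.06; adjusted p = 0.840).

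**Figure D4:**
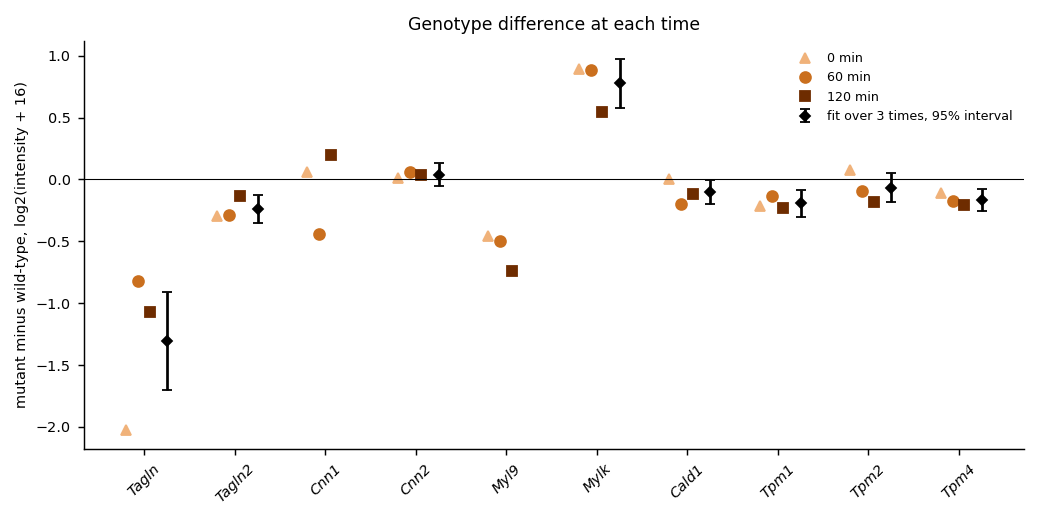
Mutant minus wild-type difference on the log2(intensity + 16) scale for each gene at 0, 60 and 120 minutes, 1 array per genotype at each time, with black diamonds for the fit over the 3 times and bars for its 95% interval. Tagln lies between -2.03 and -0.82 and Mylk between 0.55 and 0.89, and the other tested members lie nearer to 0; Cnn1 and Myl9 have no diamond because they were below the filter, and their points at 0 minutes compare values below its level, as do all those of Cnn1.

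Whether the genotypes differed in their response over time had no residual degrees of freedom and could not be tested, so it is given as values. From 0 to 120 minutes Tpm1 gained log2 1.44 in mutant and 1.45 in wild-type cells. Cnn2 gained 0.78 in mutant and 0.76 in wild-type cells, and Tpm4 gained 0.83 in mutant and 0.93 in wild-type cells. In these genes the genotypes lay close together. Tpm2 gained 0.34 in mutant and 0.59 in wild-type cells, and Tagln2 gained 0.76 in mutant and 0.60 in wild-type cells. For Tagln the comparison depended on the offset. Its gain was 4.53 in mutant and 3.58 in wild-type cells at an offset of 16, but 2.82 in mutant and 2.93 in wild-type cells at an offset of 64, which turns the order round.

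The levels of the members over the 6 arrays were then set against those of other genes, as a description. Among 985 genes with a range of at least 1 log2 unit, Zyx had the profile most like that of Tagln (Pearson's r = 0.996 over 6 arrays), and encodes zyxin, a protein of focal adhesions. It was followed by Rhoj (0.993), Slc35e4 and Lonrf1 (0.990 each) and Nr2f6 (0.986). Zyx had intensities of 628, 1284 and 1297 in mutant cells and 912, 1401 and 1476 in wild-type cells at 0, 60 and 120 minutes, and like Tagln was lower in mutant than in wild-type cells at all 3 times. The genes most like Mylk were Wscd2, Plac8, Ank3, Alox5ap and Slit2 (r from 0.989 to 0.992). Slit2, a secreted guidance factor, had intensities of 730, 737 and 682 in mutant cells and 342, 334 and 364 in wild-type cells. The 6 arrays share 3 times and 2 genotypes, so such values mainly show a common order of arrays.

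Related genes that are not members were taken from lists made from textbook knowledge. The lists were chosen with earlier results of these data known, so their shares are no independent comparison. Of 18 tested actins and actin-binding SRF targets, 16 were higher at 60 and 17 at 120 minutes and none was lower, with a median log2 difference of 0.66 and 0.72. Over all genes 7.34% were higher at 60 and 16.2% at 120 minutes, with medians of -0.07 and -0.09. The largest were Acta2 (3.25 ± 0.047 at 60 and 3.32 ± 0.047 at 120 minutes, SE) and Actg2 (1.95 ± 0.12 and 2.23 ± 0.12), with Acta1, skeletal muscle actin, at 1.64 ± 0.17 and 2.14 ± 0.17. At 0 minutes Actg2 in both genotypes and Acta1 in mutant cells (38.2) were below the filter level. The sizes of these differences thus rest on dim values, and Actg2 passed the filter only through its later arrays. Srf itself differed by 2.39 ± 0.077 (adjusted p = 1.68e-08) and 2.17 ± 0.077 (adjusted p = 3.51e-08), and of the 6 tested genes for SRF and its cofactors 2 were higher at 60 and 3 at 120 minutes (Srf and Elk4 at both times, Elk3 at 120 minutes). The family members Cnn3 and Tpm3, which were not in the set, changed less: Cnn3 by 0.27 ± 0.049 and 0.32 ± 0.049 (adjusted p = 0.00406 and 0.000544) and Tpm3 by 0.13 and 0.23 ± 0.050 (adjusted p = 0.103 and 0.00383).

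Of 15 tested genes for myosin II and its regulators, 5 were higher and none lower at 60 minutes, and 6 were higher and 1 lower at 120 minutes, against 7.34% higher and 10.7% lower of all genes at 60 and 16.2% higher and 30.8% lower at 120 minutes. Myl6, an essential light chain, had intensities of 208, 429.7 and 248 in mutant cells and 237, 361 and 238 in wild-type cells, and its rise of log2 0.79 ± 0.099 (SE; adjusted p = 0.000404) at 60 minutes was followed by a difference of -0.66 (adjusted p = 0.000839) between 120 and 60 minutes. Ppp1r12a, the targeting subunit of the phosphatase that opposes Mylk, rose by log2 0.51 ± 0.053 at 60 and 0.67 ± 0.053 at 120 minutes (adjusted p = 0.000106 and 6.23e-06). At 120 minutes Cdc42bpa, a kinase, rose by 0.40 ± 0.071 (adjusted p = 0.00124) and Myh9, a heavy chain of nonmuscle myosin, by 0.35 ± 0.047 (adjusted p = 0.000193). Rock1, a kinase that promotes contractility, rose by 0.23 ± 0.062 at 60 and 0.32 ± 0.062 at 120 minutes (adjusted p = 0.0268 and 0.00193). Among the regulatory light chains, Myl12a rose by 0.28 ± 0.058 and 0.34 ± 0.058 (adjusted p = 0.00764 and 0.000885), while Myl12b differed by -0.05 and -0.17 ± 0.058 (adjusted p = 0.561 and 0.0329). The median of the 15 was 0.05 at 60 and 0.17 at 120 minutes, against -0.07 and -0.09 for all genes.

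Between genotypes, the same related genes were mixed. Of the 18 actins and actin-binding SRF targets 5 were lower and 2 higher in mutant cells, against 8.92% lower and 10.4% higher of all genes, with a median log2 difference of -0.08 against 0.01. The higher share was thus near that of all genes. Acta1 differed by -0.80 ± 0.14 (SE; adjusted p = 0.00346), Tuft1 by -0.76 ± 0.11 (adjusted p = 0.00125) and Zyx by -0.28 ± 0.073 (adjusted p = 0.0255), while Actg2 was higher by 0.35 ± 0.099 (adjusted p = 0.0361). The Actg2 intensities were 26.0, 141 and 156 in mutant cells and 13.4, 102 and 142 in wild-type cells at 0, 60 and 120 minutes. Its call thus includes a pair of arrays below the filter level. Acta2 and Srf did not pass (-0.05 and -0.17; adjusted p = 0.413 and 0.0866). Of the 15 myosin II genes the calls were 2 higher and 1 lower, shares near those of all genes. The 2 higher were Ppp1r12a (0.17 ± 0.043; adjusted p = 0.0206) and Ppp1r14b (0.18 ± 0.041; adjusted p = 0.0159), and the lower was Rhob (-0.20 ± 0.048; adjusted p = 0.0164). Smtn, which encodes the smooth muscle actin-binding protein smoothelin, was lower by -0.30 ± 0.078 (adjusted p = 0.0250).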

How the data were processed

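RNA of the 6 samples was labelled with biotin and measured on 1 array each. The authors deposited 1 intensity per probe set and array; per the submitters' processing notes the authors used Affymetrix Power Tools 1.14.3.1 and PLIER, which summarises the probes of a set. The background correction and the scaling between arrays are not given in the sources used here. For arrays, their number limits the precision.

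Probe sets were paired with genes through the platform annotation: 34945 with 1 gene, 932 with several and 9160 with none, besides 64 controls. Symbols were updated through a RefSeq table of GRCm38.p6, matched by 34741 sets. No member set was paired with a second gene. From log2(intensity + 16), without further scaling, the set with the highest mean stood for each gene. A filter at the 40th percentile of these means, equal to an intensity of 39.2, kept 10916 genes.

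The fit used limma 3.58.1 (R 4.3.3) with additive terms for genotype and time. It left 2 residual degrees of freedom, and eBayes, with a trend on mean level, added 7.77. P-values were two-sided and adjusted by Benjamini-Hochberg over all genes of a contrast. The time in the labels is the block that pairs the genotypes, and any difference in time course falls into the residual. The procedure was tested on simulated data.

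The members and gene lists were chosen with earlier results of these data known. All members were named. By rule, up to 4 genes that passed could be named per list and contrast, by size of change, and the 5 genes most like Tagln and most like Mylk in profile were named. Further list genes, such as Rock1 at 120 minutes, and the probe sets singled out were chosen after their values were seen. The alternatives changed the offset, filter, use of probe sets, scaling, shrinkage and block, and left out each array in turn. Leaving out an array left its partner at that time unpaired, so the genotype estimate was the same whichever of the pair was left out.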

Additional observations from a re-analysis of the deposited data

Results flagged for a closer look

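In 3 instances a member's brightest probe set moved in opposite directions in the genotypes by at least 0.05 on the log2 scale; the difference was not tested, since each genotype had 1 array per time. For Mylk the response from 0 to 120 minutes was -0.25 in mutant and 0.09 in wild-type cells, a difference of -0.35. From 60 to 120 minutes it was -0.25 in mutant and 0.09 in wild-type cells, a difference of -0.34, which rests on the same 120 minute arrays. A second Mylk set gave 0.06 in mutant and 0.18 in wild-type cells from 60 to 120 minutes. For Cald1 the response from 0 to 60 minutes was -0.11 in mutant and 0.08 in wild-type cells, a difference of -0.20. Another Cald1 set, 1424768_at, ran the other way, with 0.69 in mutant and -0.12 in wild-type cells.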

How the results depend on the processing

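The counts of members higher at 60 (6) and at 120 minutes (6) ranged from 4 to 8 and from 6 to 7 under the 16 alternatives. The count of 4 lower in mutant cells was 1 without the trend, 0 without the replicate block of time, and from 2 to 4 when 1 array was left out. It was 5 without a filter, where Myl9 was lower as well, and 5 with the mean of sets. Mylk, the 1 higher member, was below a 60th percentile filter, which left 0. The 3 higher at 120 than at 60 minutes became 0 without the block and from 1 to 5 when 1 array was left out, and 1 member, Cald1, was lower with its probe sets averaged. Among values of single members that changed sign, none was called in the main setting except that of Tpm1 between 60 and 120 minutes, which became -0.022 with the mean of its sets. For Mylk, 60 minus 0 minutes became 0.037 under quantile normalization and 0.064 with arrays centred on their median. Leaving out 1 array gave Mylk from -0.088 to 0.087 for 60 minus 0, from -0.25 to 0.091 for 120 minus 0 and from -0.25 to 0.092 for 120 minus 60 minutes. For Cald1, 60 minus 0 minutes became 0.26 with the mean of its sets (adjusted p = 0.0303), 0.049 with arrays centred, and from -0.096 to 0.065 when 1 array was left out. With the mean of sets its 120 minus 0 minute value became -0.051 and its 120 minus 60 minute value -0.31 (adjusted p = 0.0121). The means of the Cald1 and Tpm1 sets include the dim ones that peaked at 60 minutes, and the cause of the other changes was not tested. Without the block the numbers of genes called higher and lower were 37 and 52 between genotypes (1138 and 974 with it), 350 and 235 for 60 minus 0 (801 and 1168), 1040 and 1732 for 120 minus 0 (1768 and 3362) and 400 and 607 for 120 minus 60 minutes (1112 and 1634). The 1138 higher became 725 with the mean of sets, 728 without the trend and as few as 575 when 1 array was left out, and the 801 and 1168 became as few as 525 and 534. Values near or far below the filter level, such as those of Myl9 and of Tagln at 0 minutes in mutant cells, are limited by low signal.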
